A study of Homo sapiens with 6 samples.

Results

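Peaks in coding exons were the ChIP-seq peaks of plasminogen activator inhibitor-1 (PAI-1) whose midpoint lay in the protein-coding part of an exon, and they numbered 3187 of 380031 over 4 libraries. Members were chosen from position alone: a peak counted when its midpoint fell in a coding interval of any protein-coding gene of GENCODE 44 on GRCh37, the assembly behind hg19. The 20163 genes gave 211937 merged coding intervals with 35.7 Mb of sequence, which is 1.25% of the reference. The study immunoprecipitated chromatin with an anti-PAI-1 antibody (M01, clone 3F2) from the nuclei of 2 lines grown from human bladder cancer, RT112 and UM-UC-3, to ask where in the genome the protein was bound. The labels name no treatment or genetic change for either line. Each line had 2 biological replicate libraries, each with a peak list of its own, and 1 input library that was not analysed here. The labels give no batch, and the lists hold no read counts, so the depth behind a peak is unknown.

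PAI-1 is a secreted serpin that blocks the tissue-type and urokinase-type plasminogen activators and so slows fibrinolysis. It has no known DNA-binding domain, and the study looked at it because part of it was seen in the nucleus. Coding exons are mostly short stretches set between long introns. They are richer in G and C than the introns around them, and their base order is held by the codons they carry.

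Sequences of 8 peaks are given here, so that the DNA behind the counts can be seen: the pair of best-ranked coding peaks found in both replicates of each cell line, and the 4 best-ranked of those found in all 4 libraries. Each is read from GRCh37 in the direction of the gene, cut to at most 300 bases around the midpoint, with coding bases in capitals and all other bases in lower case. In RT112, the ZAN peak (chr7:100349212-100349511, plus strand) reached into coding exon 13 of 48 of zonadhesin, a sperm protein that binds the egg coat, and the KSR2 peak (chr12:117907365-117907664, minus strand) covered coding exon 19 of 20 of a scaffold of Ras signalling:
ZAN: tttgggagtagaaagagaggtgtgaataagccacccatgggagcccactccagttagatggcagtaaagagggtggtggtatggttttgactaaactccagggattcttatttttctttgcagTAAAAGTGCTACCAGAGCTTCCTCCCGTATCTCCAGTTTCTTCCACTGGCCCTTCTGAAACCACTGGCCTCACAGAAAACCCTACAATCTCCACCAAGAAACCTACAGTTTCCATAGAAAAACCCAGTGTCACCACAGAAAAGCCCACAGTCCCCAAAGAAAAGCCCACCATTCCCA
KSR2: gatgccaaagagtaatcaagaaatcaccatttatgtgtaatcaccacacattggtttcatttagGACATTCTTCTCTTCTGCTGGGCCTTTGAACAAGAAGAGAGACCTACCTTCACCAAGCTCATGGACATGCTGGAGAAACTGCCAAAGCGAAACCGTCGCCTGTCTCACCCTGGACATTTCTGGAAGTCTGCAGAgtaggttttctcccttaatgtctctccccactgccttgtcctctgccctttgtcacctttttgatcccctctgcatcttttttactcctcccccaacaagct
In UM-UC-3, the IFI16 peak (chr1:158987941-158988240, plus strand) lay at coding exon 4 of 11 of a nuclear sensor of DNA, and the OR5AK3P peak (chr11:56738571-56738870, plus strand) lay in the only coding exon of an olfactory receptor gene:
IFI16: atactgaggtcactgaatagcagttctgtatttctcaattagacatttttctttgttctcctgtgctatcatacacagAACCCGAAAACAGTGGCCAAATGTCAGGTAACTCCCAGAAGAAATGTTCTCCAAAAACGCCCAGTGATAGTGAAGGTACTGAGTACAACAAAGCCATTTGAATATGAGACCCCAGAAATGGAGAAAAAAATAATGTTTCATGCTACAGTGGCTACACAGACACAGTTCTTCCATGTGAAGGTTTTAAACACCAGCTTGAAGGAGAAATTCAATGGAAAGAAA
OR5AK3P: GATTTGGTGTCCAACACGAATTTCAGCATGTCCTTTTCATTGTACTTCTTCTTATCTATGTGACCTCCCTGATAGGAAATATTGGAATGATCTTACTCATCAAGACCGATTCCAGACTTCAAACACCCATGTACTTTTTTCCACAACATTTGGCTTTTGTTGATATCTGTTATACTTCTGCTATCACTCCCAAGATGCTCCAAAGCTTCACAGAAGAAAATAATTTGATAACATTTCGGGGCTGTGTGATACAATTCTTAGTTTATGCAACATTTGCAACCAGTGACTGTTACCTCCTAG
In all 4 libraries, peaks lay in LMOD1 (chr1:201869324-201869623, minus strand, coding exon 2 of 3), which encodes leiomodin of smooth muscle, in TRMO (chr9:100672703-100673002, minus strand, coding exon 4 of 5), a tRNA methyltransferase, in LRRFIP1 (chr2:238671701-238672000, plus strand, a coding exon that is not in the canonical transcript), and in GOLGA6L25 (chr15:28805059-28805358, plus strand, coding exon 8 of 8), a golgin-like gene:
LMOD1: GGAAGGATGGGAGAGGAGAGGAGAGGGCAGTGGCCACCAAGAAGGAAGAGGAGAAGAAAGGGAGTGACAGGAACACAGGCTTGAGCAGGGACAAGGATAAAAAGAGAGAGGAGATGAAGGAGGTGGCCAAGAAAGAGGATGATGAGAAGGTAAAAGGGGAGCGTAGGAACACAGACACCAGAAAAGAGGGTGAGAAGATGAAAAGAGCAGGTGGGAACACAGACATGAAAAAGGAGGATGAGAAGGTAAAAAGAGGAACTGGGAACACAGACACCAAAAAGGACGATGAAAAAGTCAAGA
TRMO: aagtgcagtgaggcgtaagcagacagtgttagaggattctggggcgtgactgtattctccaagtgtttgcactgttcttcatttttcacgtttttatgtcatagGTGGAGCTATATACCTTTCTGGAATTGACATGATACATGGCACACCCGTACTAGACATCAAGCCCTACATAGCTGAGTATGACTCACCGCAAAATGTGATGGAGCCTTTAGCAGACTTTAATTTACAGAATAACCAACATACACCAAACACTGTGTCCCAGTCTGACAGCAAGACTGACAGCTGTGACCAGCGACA
LRRFIP1: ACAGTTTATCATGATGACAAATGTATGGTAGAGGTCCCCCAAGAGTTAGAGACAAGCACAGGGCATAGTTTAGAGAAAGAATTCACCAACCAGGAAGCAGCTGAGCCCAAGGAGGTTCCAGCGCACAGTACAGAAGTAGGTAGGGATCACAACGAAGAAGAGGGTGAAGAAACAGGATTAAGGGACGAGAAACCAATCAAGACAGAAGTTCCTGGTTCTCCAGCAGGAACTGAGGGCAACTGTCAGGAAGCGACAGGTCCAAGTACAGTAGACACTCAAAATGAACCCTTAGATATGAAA
GOLGA6L25: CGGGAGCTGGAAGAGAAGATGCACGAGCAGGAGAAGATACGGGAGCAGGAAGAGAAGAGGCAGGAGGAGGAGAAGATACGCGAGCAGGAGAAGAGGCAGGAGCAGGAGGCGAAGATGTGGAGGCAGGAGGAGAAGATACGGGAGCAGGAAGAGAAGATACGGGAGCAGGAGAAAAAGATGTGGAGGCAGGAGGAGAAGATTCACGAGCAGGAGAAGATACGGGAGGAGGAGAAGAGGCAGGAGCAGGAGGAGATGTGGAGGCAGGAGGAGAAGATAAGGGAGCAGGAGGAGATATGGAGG
The LMOD1 and GOLGA6L25 sequences are long runs of A and G on the coding strand, and TRMO and OR5AK3P are mixed. Such runs, in which GAA, GAG and AAG codons follow each other, encode chains of charged residues.

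In every library coding sequence held fewer peaks than the same lists placed there when shifted nearby and fewer per Mb than introns. RT112 replicate 1 had 847 coding peaks of 96423 (0.878%) and RT112 replicate 2 had 561 of 60227 (0.931%). UM-UC-3 replicate 1 had 862 of 109287 (0.789%) and UM-UC-3 replicate 2 had 917 of 114094 (0.804%). Both shares of RT112 lay above both of UM-UC-3. The mean share was 0.905% ± 0.0375 (SD, n = 2) in RT112 and 0.796% ± 0.0106 (SD, n = 2) in UM-UC-3. The difference of UM-UC-3 minus RT112 was -0.109 percentage points (exact permutation test, two-sided p = 0.333), which is the smallest p that 2 against 2 libraries allow. Whether copy number or the input background of a line moves its share was not tested, since neither was measured in these lists.

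To set these numbers against the local density of exons, all midpoints of a library were moved together by 20 distances, from 100 kb to 1 Mb in both directions. The moved lists gave 1063 to 1229 coding midpoints for RT112 replicate 1 (mean 1144.2) and 659 to 782 for RT112 replicate 2 (mean 713.8). They gave 1231 to 1352 for UM-UC-3 replicate 1 (mean 1286.6) and 1295 to 1416 for UM-UC-3 replicate 2 (mean 1356.4). None of the 20 shifts gave a number as low as the listed peaks in any library. As a ratio of shares, listed over shifted, the value was 0.738 and 0.784 for RT112 and 0.668 and 0.674 for UM-UC-3. The means were 0.761 ± 0.0321 (SD, n = 2) and 0.671 ± 0.00428 (SD, n = 2).

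**Figure D1:**
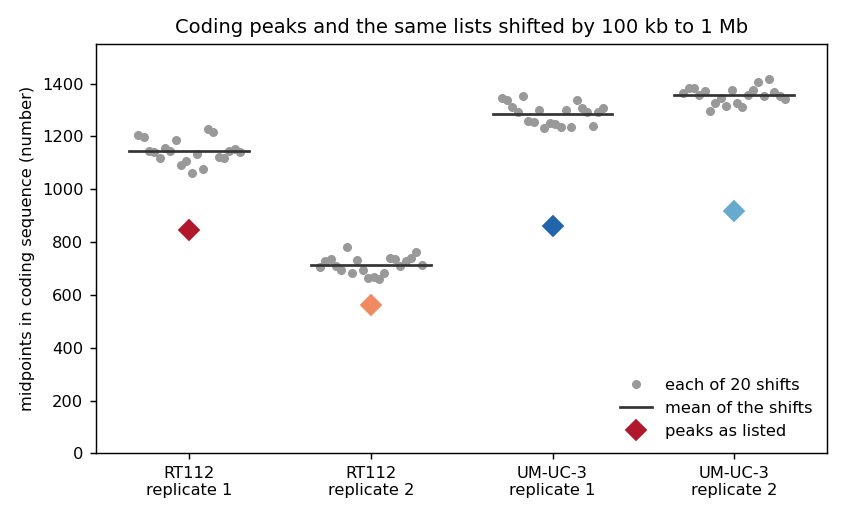
Number of peak midpoints in coding sequence for each library (x axis), as listed (diamonds) and after the whole list was moved by each of 20 distances from 100 kb to 1 Mb (grey points, bar at their mean). Every diamond lies below all grey points of its library, at 847 against a mean of 1144.2 in RT112 replicate 1 and at 917 against 1356.4 in UM-UC-3 replicate 2.

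The density of peaks changed gradually with distance from coding sequence and did not jump at the exon edge. In coding sequence it was 23.7 and 15.7 midpoints per Mb for RT112 and 24.2 and 25.7 for UM-UC-3. In the first 100 bp outside it was 24.997 and 16.1 for RT112 and 27.0 and 29.2 for UM-UC-3. RT112 replicate 2 had 15.7 at 200 to 300 bp and 15.1 at 300 to 500 bp, no denser than coding sequence. At 5 to 10 kb it had risen to 34.7, 21.4, 39.2 and 41.6 in the same order. Untranslated parts of exons of the same genes were close to coding sequence, at 25.2, 14.8, 27.6 and 29.3 midpoints per Mb, and only in RT112 replicate 2 did they lie below it. Introns held 33.0, 20.6, 37.5 and 39.2 midpoints per Mb, and sequence outside protein-coding genes held 34.8, 21.8, 39.5 and 41.2. Coding sequence therefore had the lowest density of these 4 classes in RT112 replicate 1 and both UM-UC-3 libraries.

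**Figure D2:**
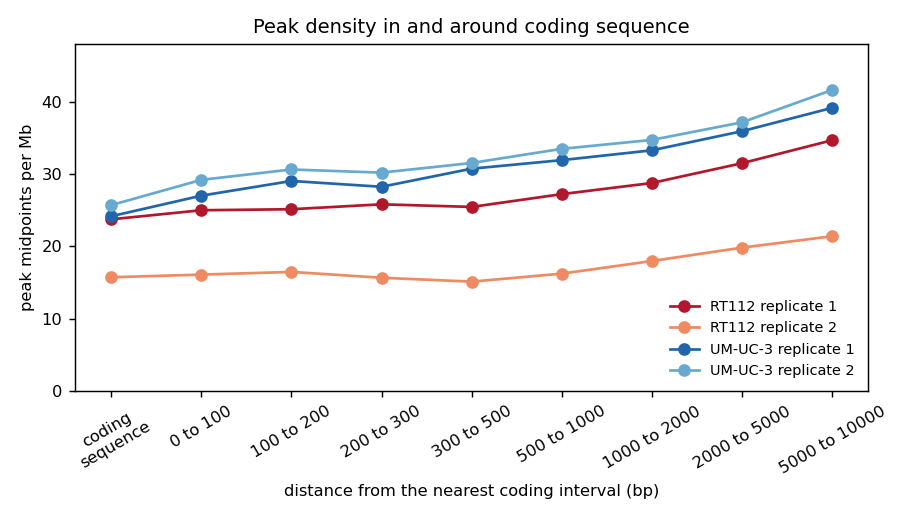
Peak midpoints per Mb (y axis) in coding sequence and in steps of distance from the nearest coding interval (x axis, in bp), with a line for each library. The lines rise from 15.7 to 25.7 per Mb in coding sequence to 21.4 to 41.6 per Mb at 5 to 10 kb, with most of the rise beyond 500 bp.

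A coding peak was seldom coding over its full width. Widths did not set coding peaks apart, with medians of 294, 263, 272.5 and 269 bp in RT112 replicates 1 and 2 and UM-UC-3 replicates 1 and 2, beside 293, 265, 274 and 270 bp for the other peaks. Peaks that were coding from end to end made up 25.5% and 26.6% of the members in RT112 and 20.5% in both UM-UC-3 libraries. The median member had 57.4% and 59.0% of its bases in coding sequence for RT112 and 57.2% and 58.2% for UM-UC-3. Many more peaks touched coding sequence than had their midpoint there: 2408 and 1457 for RT112 and 2437 and 2580 for UM-UC-3 shared at least 1 bp with it.

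The score of a peak, taken to be the −log10 of a p or q value of the peak caller, was used within a library only. In RT112 the median score of coding peaks was the same as that of the other peaks, 3.80 in replicate 1 and 4.09 in replicate 2. In UM-UC-3 it was higher, 4.51 against 3.88 in replicate 1 and 4.44 against 3.85 in replicate 2. This difference, 0.635 and 0.593, was 0 in both UM-UC-3 libraries among peaks with a score of at least 5, and was 0.488 and 0.0764 when 50% of the bases of a peak had to be coding. The upper quartiles of coding and other peaks were equal in every library, at 6.15, 6.56, 6.61 and 6.57. Many peaks of a library share the same score, so equal medians and quartiles do not show that the scores were distributed alike. Scores of 10 or more were found for 10.2% of coding peaks against 10.1% of others in RT112 replicate 1 and for 8.02% against 8.75% in RT112 replicate 2. In UM-UC-3 they were found for 12.2% against 9.13% in replicate 1 and 10.9% against 9.16% in replicate 2. The highest coding scores were 62.7 and 53.8 for RT112 and 37.7 and 31.5 for UM-UC-3, below the highest of the other peaks, which were 126.8, 115.1, 91.3 and 83.6.

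First coding exons had the fewest peaks against the shifts of all classes of exon. The first coding exons of canonical transcripts, which often lie near the promoter, held 41 and 25 peaks in replicates 1 and 2 of RT112 and 41 and 52 in replicates 1 and 2 of UM-UC-3. The shifted lists placed 112.9, 72.7, 127.5 and 128.4 midpoints there on average, so that the ratios of listed to shifted numbers were 0.363, 0.344, 0.322 and 0.405. Internal coding exons, which hold 23.3 Mb of the 35.7 Mb, had ratios of 0.748, 0.788, 0.743 and 0.732. In each library the ratio of first coding exons was the lower one by far. The GC content of first coding exons was 59.8% and that of internal ones 50.9%, and its part in the gap between them was not tested.

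Last coding exons and genes with a single coding exon had higher ratios in RT112 than in UM-UC-3. Last coding exons held 148 and 106 peaks in RT112 at ratios of 0.938 and 1.08, and 125 and 127 peaks in UM-UC-3 at ratios of 0.708 and 0.687. Single coding exons held 58 and 36 peaks in RT112 at ratios of 0.841 and 0.792, and 41 and 44 in UM-UC-3 at ratios of 0.516 and 0.522. The libraries of a line lay closer to each other than to those of the other line in both classes, and the difference between the lines was not tested.

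Coding intervals of 3000 bp or more stood near or above the shifted level, unlike short ones. Coding intervals of 3000 bp or more, of which there are 289 with 1.41 Mb, held 65 and 35 peaks in replicates 1 and 2 of RT112 and 47 and 54 in replicates 1 and 2 of UM-UC-3. The shifted lists placed 43.0, 27.2, 47.4 and 49.2 there on average, which gave ratios of 1.51, 1.29, 0.992 and 1.099. Intervals of 1000 bp to under 3000 bp had ratios of 0.874 and 1.04 for RT112 and of 0.746 and 0.693 for UM-UC-3, so that in UM-UC-3 they did not stand apart from those under 100 bp. Intervals of 500 bp to under 1000 bp had ratios of 0.636 and 0.673 in RT112 and of 0.442 and 0.451 in UM-UC-3. Intervals under 100 bp had ratios of 0.785 and 0.875 in RT112 and of 0.709 and 0.714 in UM-UC-3. In each library the lowest ratio thus fell between 150 bp and 1000 bp. GC content of the intervals went from 49.2% under 100 bp to 57.5% at 300 bp to under 500 bp and back to 50.1% at 3000 bp or more. The share of coding peaks in intervals of 1000 bp or more was 22.0% and 22.5% for RT112 and 18.6% and 18.0% for UM-UC-3, against 15.9%, 16.1%, 15.5% and 15.4% of shifted coding midpoints.

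**Figure D3:**
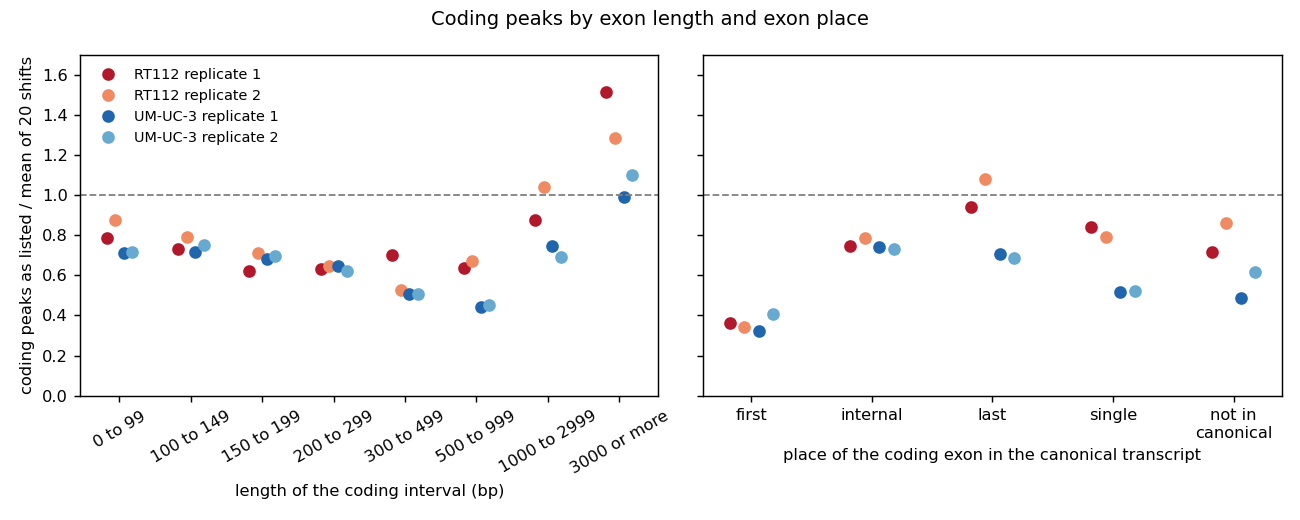
Number of coding peaks as listed divided by the mean of 20 shifts (y axis) for classes of coding interval length (left) and for the place of the coding exon in the canonical transcript (right), with a point for each library and a dashed line at 1. First coding exons lie between 0.322 and 0.405, and intervals of 3000 bp or more lie between 0.992 and 1.51.

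Coding peaks were poorer in G and C than coding sequence at large, and richer than the other peaks. In the 100 bp around the midpoint the median GC content was 48% in both RT112 libraries and 46% and 45% in UM-UC-3. The shifted coding midpoints had medians of 50% and 51% in RT112 and 50% in UM-UC-3, and the peaks outside coding sequence had 42% in RT112 and 40% in UM-UC-3. Coding positions whose surrounding 100 bp held 65% GC or more had 8 and 5 peaks for RT112 and 10 and 5 for UM-UC-3, which is 1.44, 0.899, 1.80 and 0.899 per Mb. Introns of that GC content were also sparse, at 2.18, 1.33, 3.11 and 3.03 per Mb.

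The shortfall of coding sequence against introns was smaller at like GC content. Over all positions, coding sequence had 0.720 and 0.765 times the intron density in RT112 and 0.645 and 0.656 times in UM-UC-3. When the intron density of each GC class was weighted by the GC content of coding sequence, the ratios were 0.830, 0.865, 0.797 and 0.812. They stayed below 1 in every library. The classes did not behave alike in the lines: at 50 to 55% GC coding sequence was denser than introns in RT112, with 44.5 against 40.7 and 29.7 against 26.8 peaks per Mb. In UM-UC-3 it was less dense there, with 30.8 against 39.9 and 32.1 against 41.9 per Mb. At 60 to 65% GC the ratio was near 0.5 in all libraries, at 0.512, 0.502, 0.503 and 0.463. Whether reads from GC-rich fragments were lost before peak calling was not tested.

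**Figure D4:**
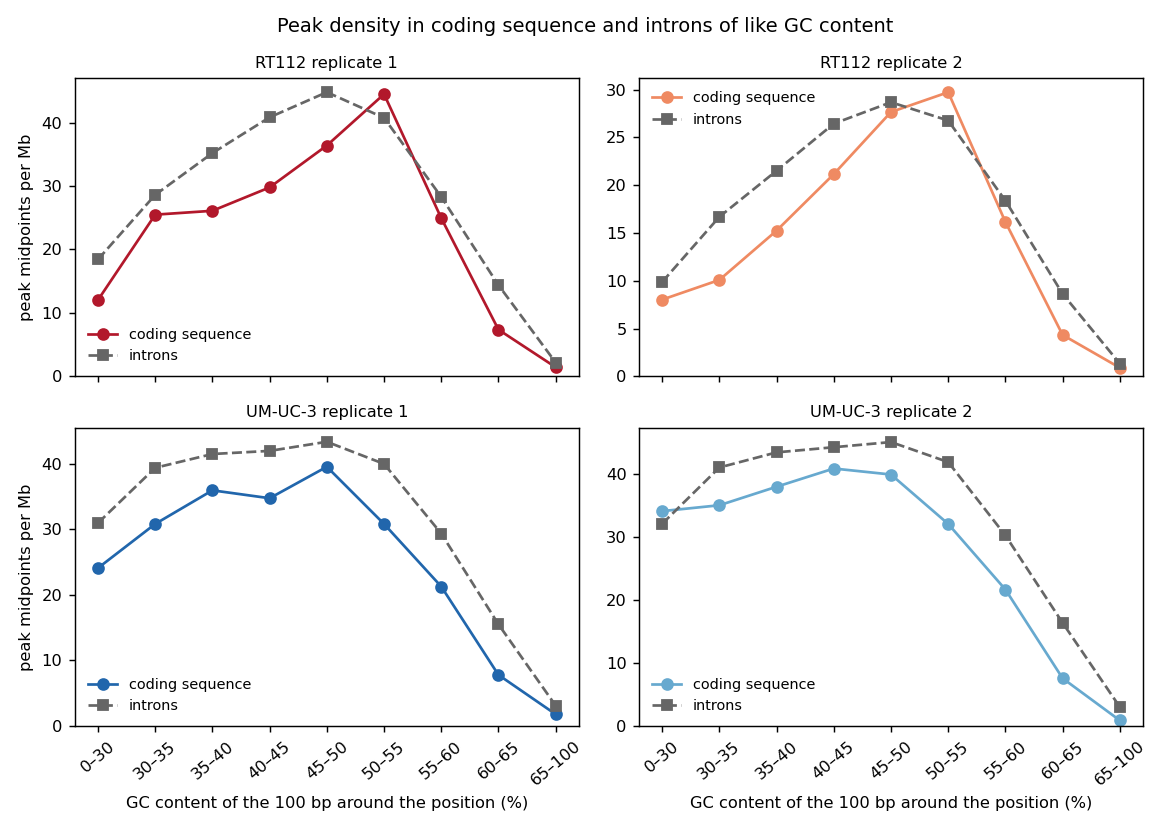
Peak midpoints per Mb (y axis) by GC content of the 100 bp around a position (x axis, in %), in coding sequence (circles, full lines) and introns (squares, dashed lines), with a panel for each library. Coding sequence lies below introns in nearly all classes, the RT112 libraries at 50 to 55% being the main exception (44.5 against 40.7 per Mb in replicate 1), and both fall to 3.11 per Mb or less from 65% on.

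Purine-rich stretches on the coding strand were more frequent at coding peaks than at shifted coding midpoints, a description with no test. Windows of 100 bp with 70% or more A and G on the coding strand were found at 21 coding peaks in each RT112 library (2.48% and 3.74%), at 29 in UM-UC-3 replicate 1 (3.36%) and at 28 in UM-UC-3 replicate 2 (3.05%). Among shifted coding midpoints the share was 0.935%, 1.002%, 1.08% and 1.12%. Windows with as many purines on the opposite strand were found at 3, 3, 4 and 2 coding peaks, or 0.354%, 0.535%, 0.464% and 0.218%. Their share among shifted midpoints was alike, at 0.402%, 0.385%, 0.311% and 0.372%. Peaks outside coding sequence held such windows too: counting the strand richer in purines, 4.14%, 4.90%, 3.67% and 3.68% of them did, beside 2.83%, 4.28%, 3.83% and 3.27% of coding peaks and 1.34%, 1.39%, 1.40% and 1.49% of shifted coding midpoints. Peaks outside coding sequence thus also lay above the shifted coding midpoints. Shifted midpoints outside coding sequence were not measured, so whether an excess is particular to coding peaks was not tested. With so few coding peaks, the opposite strand shows no difference that could be read from these counts. The median purine share of the coding strand was 51% for coding peaks and for shifted midpoints in every library, and most coding peaks had no such stretch.

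**Figure D5:**
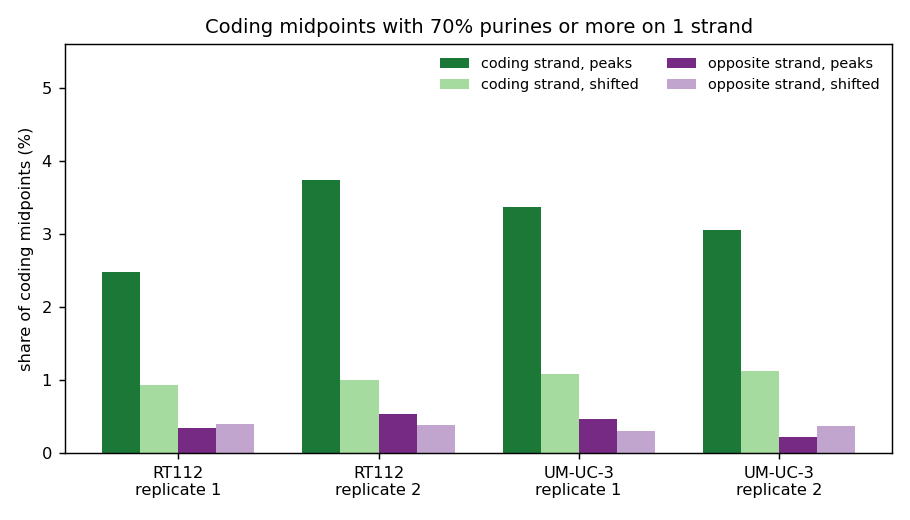
Share of coding midpoints (y axis, in %) whose 100 bp window held 70% purines or more on the coding strand (green) or on the opposite strand (purple), for peaks as listed (dark) and shifted lists (light) in each library. The dark green bars stand at 2.48 to 3.74% above light green ones at 0.935 to 1.12%, while both purple bars stay at 0.535% or less.

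Windows rich in purines on the coding strand were most frequent at loci shared by more libraries. Overlapping coding peaks were joined over the libraries into 2213 loci in 1909 genes. The purine share of a locus was read in 1 window, which need not be that of each of its peaks. Of 1287 loci with a coding peak in 1 library, 16 (1.24%) had 70% purines or more on the coding strand, and of 891 in 2 libraries, 24 (2.69%) had. Of the 23 loci in 3 libraries 3 had, and of the 12 loci in all 4 libraries 5 had. Among the 44 loci with a coding peak in both cell lines, 8 (18.2%) were of this kind, against 40 of 2169 (1.84%) in 1 line only. The 8 included the golgin-like genes GOLGA6L25, GOLGA6L22 and GOLGA6L2. Windows of GOLGA6L25 and GOLGA6L22 were repeated in the reference, so that reads there cannot be given to 1 place with certainty. Such shares are not given here for peaks outside coding sequence. Windows purine-rich on the opposite strand were seen at 8 of the 2213 loci and at 0 of the 44. Coding intervals of 1000 bp or more held 23 of the 44 loci shared by the lines (52.3%) and 376 of 2169 others (17.3%). Asking for a coding midpoint in each line by itself favours long intervals. The 42 loci with a peak of any kind in all 4 libraries had 9 in such intervals (21.4%, against 18.0% of all loci), and 6 of them were purine-rich on the coding strand (14.3%, against 2.17%).

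LMOD1 and TRMO had the highest scores of the 12 loci with a coding peak in all 4 libraries. LMOD1 scored 23.05 and 20.1 for RT112 and 23.3 and 22.3 for UM-UC-3, and its window was 85% purine on the coding strand. TRMO had 13.2 and 12.8 for RT112 and 24.3 and 24.3 for UM-UC-3, at 52% purine. Scores are not comparable between libraries, so no difference between the lines is read from them. The other 10 loci scored lower than both in each library.

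GOLGA6L25 scored 7.43 and 5.29 for RT112 and 11.3 and 8.05 for UM-UC-3, at 85% purine. This 85%, read in 1 window, cannot be given to all 4 of its peaks. The related gene GOLGA6L2 scored 6.20, 8.53, 3.35 and 6.98, at 82% purine. In GOLGA6L2 the peak of RT112 replicate 2 did not overlap those of UM-UC-3, and the wider peak of RT112 replicate 1 joined them. The 82%, read in 1 window, cannot be given to all 4 of these peaks. The golgin-like genes form a family of near-identical copies on chromosome 15, and the 32 bp words tested in the GOLGA6L25 window each occurred 5 times or more in the reference, so that reads there cannot be given to 1 place with certainty. The GOLGA6L2 window held a word that occurred once. CALD1, which encodes the actin-binding protein caldesmon, scored 10.1, 9.32, 5.19 and 9.60, at 77% purine, in coding exon 3 of 13. LRRFIP1, a protein that binds RNA and DNA, scored 8.75, 6.56, 6.61 and 9.60, at 70% purine. These 5 loci all lay in coding intervals of over 1000 bp.

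The other 6 loci of the 12 had between 47% and 66% purines. UACA, a coiled-coil protein of the apoptosis pathway, scored 8.75, 2.97, 6.61 and 5.16. TNRC6C, a scaffold of microRNA-guided silencing, scored 7.84, 6.39, 3.46 and 4.11, and ADA2, an adenosine deaminase, scored 6.91, 8.73, 3.13 and 6.67. EIF2B4, a subunit of the exchange factor for translation initiation, scored 5.31, 4.60, 6.94 and 3.60. MUC17, a membrane-bound mucin, scored 2.76, 4.09, 5.19 and 3.85, in a coding interval of 12219 bp. STX17, a syntaxin of autophagosomes, was lowest with 2.76, 2.97, 3.88 and 2.63. UACA, ADA2 and EIF2B4 lay above the median score of coding peaks in 3 of the 4 libraries, and STX17 lay above it in none.

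Purine-rich loci with high scores also occurred in 1 line or in 3 libraries, of which TSBP1 and MAP1B were chosen after their values were seen. TSBP1, a testis gene, scored 33.6 and 19.9 in UM-UC-3 and 2.37 in RT112 replicate 2, at 80% purine. PRPF38B, a splicing factor, scored 29.7 and 31.3 in RT112 and had no peak in UM-UC-3, also at 80%. EVC2, a ciliary protein of Hedgehog signalling, scored 25.7 and 23.7 in UM-UC-3 alone, at 72%. MAP1B, a microtubule-associated protein, had peaks in 3 libraries with scores of 4.30, 4.09 and 13.2, at 85%. This 85%, read in 1 window, cannot be given to all 3 peaks.

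The best-ranked loci of each cell line were of mixed composition. In RT112, KSR2 scored 62.7 in replicate 1 and 44.9 in replicate 2, ZAN scored 57.1 and 53.8, and the insulin-like growth factor receptor gene IGF1R scored 35.2 and 39.0 at coding exon 16 of 21. None of these had a coding peak in UM-UC-3. The KSR2 locus did overlap a peak of UM-UC-3 replicate 2 whose midpoint was not coding, while ZAN and IGF1R overlapped no UM-UC-3 peak. UTP14C, an intronless gene of ribosome assembly, scored 31.5 and 27.6. EIF4E2, which encodes a cap-binding protein, scored 37.02 and 22.3, at a coding exon that is not in the canonical transcript. EMSY, a partner of BRCA2, scored 29.7 and 22.3, and the testis gene SPATA31D1 scored 22.7 and 33.2. PRPF38B completes the 8 loci of RT112 named by rank.

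In UM-UC-3, IFI16 scored 37.7 in replicate 1 and 31.5 in replicate 2, and OR5AK3P scored 25.7 and 31.5. RUNX2, a transcription factor of bone formation, scored 23.2 and 30.2 in its coding exon 8 of 8, and PRKG1, a kinase activated by cyclic GMP, scored 35.7 and 21.8. The centrosomal gene CEP126 scored 23.8 and 23.7, in a coding exon that is not in the canonical transcript. Its window had 15% purines on the coding strand, the lowest of the named loci. It was thus 1 of the 8 loci that were purine-rich on the opposite strand. GOLGA6L22 scored 29.3 and 21.6, and 7.43 in RT112 replicate 1, at 83% purine. Its words, too, occurred 5 times or more in the reference. TRMO and EVC2 make up the 8.

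Coding peaks were found again in the other replicate about as often as all peaks. In RT112 replicate 1, 349 of 847 coding peaks (41.2%) overlapped a peak of replicate 2, against 38.2% of all its peaks, and in RT112 replicate 2, 346 of 561 (61.7%) overlapped one of replicate 1, against 61.3%. In UM-UC-3 replicate 1 it was 665 of 862 (77.1%) against 74.9%, and in UM-UC-3 replicate 2 it was 645 of 917 (70.3%) against 71.7%. The gap to the background lay on both sides of 0. Noncoding peaks weighted to the same scores gave 38.2%, 61.2%, 75.8% and 72.3%. Recurrence rose with the score. Among the top 10% of scores 82.6% and 91.5% of coding peaks recurred for RT112 and 92.5% and 94.1% for UM-UC-3. Over all peaks in the top 10% it was 81.6% and 85.0% for RT112 and 94.3% and 91.6% for UM-UC-3. Among scores below the library median 23.6% to 64.0% of coding peaks recurred.

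Sharing between the cell lines was low for coding peaks as for all others. In RT112 replicate 1, 52 coding peaks (6.14%) overlapped a peak of UM-UC-3 replicate 1, against 5.63% of all peaks, and 50 (5.90%) one of UM-UC-3 replicate 2, against 5.77%. In RT112 replicate 2 it was 42 (7.49%) against 6.19% and 40 (7.13%) against 6.34%. From the other side, 61 coding peaks of UM-UC-3 replicate 1 (7.08%) overlapped a peak of RT112 replicate 1, against 4.97%, and 42 (4.87%) one of RT112 replicate 2, against 3.41%. In UM-UC-3 replicate 2 it was 54 (5.89%) against 4.87% and 41 (4.47%) against 3.35%. All 8 shares lay above their background, by 0.138 to 2.11 percentage points. Each pair of libraries was read from both sides and the same loci enter several shares, so these are not 8 separate observations.

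Overlap with each of the other 3 libraries was found for 28 coding peaks of RT112 replicate 1 (3.31%, against 2.17% of all peaks) and for 24 of RT112 replicate 2 (4.28%, against 3.38%). It was found for 25 of UM-UC-3 replicate 1 (2.90%, against 1.87%) and for 23 of UM-UC-3 replicate 2 (2.51%, against 1.8%). These counts rest on few loci, and the same loci enter all 4. By loci, 292 had a coding peak in both RT112 replicates alone and 590 in both UM-UC-3 replicates alone. A further 519, 241, 234 and 293 loci had one in RT112 replicate 1, RT112 replicate 2, UM-UC-3 replicate 1 or UM-UC-3 replicate 2 alone. Of the 2213 loci, 917 (41.4%) had a coding peak in both replicates of at least 1 line and 44 (1.99%) in both lines. These locus counts ask for a coding midpoint in each library. A locus counted for 1 library or line alone may still overlap a noncoding peak of another. Of the 52 coding peaks of RT112 replicate 1 that overlapped a peak of UM-UC-3 replicate 1, 32 overlapped a coding one.

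Several coding peaks in 1 gene were rare and went with long genes. Coding peaks fell in 796 genes and 543 in replicates 1 and 2 of RT112 and 806 and 852 in replicates 1 and 2 of UM-UC-3. Genes with 2 or more of them numbered 41, 15, 45 and 58. The shifted lists gave 61.1, 26.6, 70.5 and 77.0 on average, with ranges of 46 to 75, 19 to 41, 51 to 91 and 57 to 99. The listed peaks gave a number below the range for RT112 and in UM-UC-3 replicate 1, and inside it for UM-UC-3 replicate 2. The shifted lists also had more coding midpoints and more genes with one, 1076.7, 685.1, 1206.5 and 1268.7 on average, so the lower numbers are not a measure of how peaks gather in a gene. Genes with 2 or more coding peaks had a median of 4839, 5626, 5221 and 4517 coding bp in the 4 libraries, beside 2241 to 2379 bp for genes with 1 and 1364 bp for all genes.

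TTN and MUC16 had the longest coding sequence and the most loci of the 10 genes named by number of loci. Per 10 kb of coding sequence TTN had the fewest loci of the 10, at 0.960, and MYH13 the most, at 6.88. Over all genes there were 60.8 loci per Mb. TTN, which encodes the sarcomere spring titin, had 11 loci in 114586 coding bp, with 7 and 4 coding peaks for RT112 and 3 and 2 for UM-UC-3. MUC16, a membrane mucin known as the antigen CA125, had 9 loci in 43836 bp, with 4 and 2 peaks for RT112 and 5 and 4 for UM-UC-3. PKHD1L1 had 6 loci in 12840 bp, with 3 and 3 peaks for RT112 and 1 and 1 for UM-UC-3. HYDIN, a protein of motile cilia, had 6 loci in 15730 bp, of which none recurred in both replicates of a line. RT112 had more coding peaks than UM-UC-3 in TTN and PKHD1L1, and fewer in MUC16.

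CCDC168 had 5 loci in 21243 bp. The remaining 5 genes had 4 loci each: MED12, a subunit of Mediator, in 6831 bp, the gel-forming mucin gene MUC19 in 24666 bp, MUC17 in 13479 bp, the myosin gene MYH13 in 5814 bp and the dynein gene DNAH9 in 13635 bp. All 4 loci of MUC19 recurred in both replicates of a line, as did 3 of MUC17, 5 of TTN and 4 of MUC16. No locus of these 10 genes had a window repeated elsewhere in the reference.

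Among gene families named by symbol, the mucins had the most loci per coding sequence. Of 17 mucin genes 8 had a locus, with 22 loci in all or 133 per Mb of coding sequence, against 60.8 per Mb over all genes. Mucins held 9 and 6 coding peaks for RT112 and 12 and 11 for UM-UC-3. This was 2.90 and 3.16 times the shifted number in RT112 and 2.07 and 1.90 times in UM-UC-3. The ratios rest on small numbers, as the shifts placed 3.1, 1.9, 5.8 and 5.8 midpoints there on average. MUC16 held 9 of the 22 mucin loci, and MUC17 and MUC19 held 4 each. Of all 22 loci 12 recurred in both replicates of a line, and none had a repeated window. MUC19 had the highest score among them (18.2), followed by MUC17 (14.6), MUC4 (11.2) and MUC16 (9.32).

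Olfactory receptors, which are made of 1 coding exon and are used mainly in the nose, had a locus in 46 of 412 genes (11.2%, against 9.47% of all genes). They held 19 and 9 peaks for RT112 and 22 and 19 for UM-UC-3, or 1.65, 1.18, 1.37 and 1.101 times the shifted number. OR5AK3P (31.5) and OR5L2 (21.0) had the highest scores, followed by OR11H6 and OR6C6 with 18.2 each. Zinc finger genes with ZNF symbols, which carry their fingers in a long last exon, had 79 loci in 72 of 515 genes, led by ZNF135 (21.0) and ZNF273 (16.4). Their 32 and 16 peaks for RT112 and 37 and 38 for UM-UC-3 were 1.002, 0.825, 1.09 and 1.06 times the shifted number, beside 0.740, 0.786, 0.670 and 0.676 over all genes. These families lay above the ratio of all genes in each library.

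The other families held at most 5 coding peaks in each library, and for histones and ribosomal proteins few were placed there by the shifts. Over all genes 9.47% had a locus, and the ratios to the shifted number were 0.740, 0.786, 0.670 and 0.676. Protocadherins had 4 loci in 4 of 66 genes (6.06%: PCDH15, PCDHB6, PCDH9 and PCDHGC4), each found in both replicates of 1 line. They held 2 peaks in each library at 0.412, 0.615, 0.328 and 0.320 times the shifted number. Keratins and keratin-associated proteins had 4 loci in 4 of 149 genes (2.68%). They held 1 and 1 peaks for RT112 and 2 and 1 for UM-UC-3, beside 3.35, 1.8, 5.95 and 5.95 shifted midpoints on average. Histones had 1 locus in 88 genes (1.14% of genes) and ribosomal proteins 2 in 97 genes (2.06% of genes). Histone coding sequence held 1 peak in UM-UC-3 replicate 2 (H2AC1, score 3.30) and 0 in the other libraries, beside 0.65 to 1.5 shifted midpoints on average. Ribosomal protein genes held RPS18, in both UM-UC-3 libraries, and RPL7, whose window was repeated in the reference. The shifts placed 1.55 to 2.7 midpoints there, so a shortfall could not be detected in either family. Collagens had 11 loci in 9 of 44 genes (20.5%), with COL22A1 (9.65) and COL4A1 (5.64) highest. This was 54.7 loci per Mb of coding sequence, against 60.8 over all genes. Their ratios of 0.741 and 0.750 in RT112 were near those of all genes, and 0.510 and 0.452 in UM-UC-3 were below them.

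Some genes often mutated in bladder cancer had a coding locus. ERBB3, a receptor of the epidermal growth factor family, and the methyltransferase KMT2A had a coding peak in both RT112 replicates and none in UM-UC-3. Their highest scores were 5.05 and 3.86. TSC1, a brake on growth signalling, had a peak in RT112 replicate 2 with a score of 2.97, and FBXW7, which marks proteins for degradation, had a peak in RT112 replicate 1 with a score of 2.76.

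How the genes with ChIP-PCR primers of the study were chosen is not given in the sources used here, and their counts are a description. Of the 12 genes, 4 had a coding locus (33.3%, against 9.47% of all genes). They held 2 or 3 coding peaks in each library, beside 0.65 to 1.9 shifted midpoints on average. NFKB1, a subunit of the transcription factor NF-kB, had 2 loci seen in RT112 only, and LPXN, an adaptor of focal adhesions, had 1 in both RT112 replicates. APC, the brake on beta-catenin, had 2 loci seen in UM-UC-3 only, and DOCK2, a Rac activator of blood cells, had 1 in both UM-UC-3 replicates with a score of 9.65. None of the 4 genes had a coding peak in both lines, and over all genes only 44 of 2213 loci (1.99%) had. Of the 57 genes on both gene lists of the study, which were chosen in part on these peaks and so are no independent evidence, 6 had a locus (10.5%, against 9.47% of all genes), with CACNA1C (11.1) and C2orf73 (8.75) highest.

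Repeated sequence was rarer at coding peaks than at coding midpoints placed by shift. Windows in which each of 3 words of 32 bp occurred more than once in the reference made up 12 of 847 and 4 of 561 coding peaks for RT112 and 7 of 862 and 10 of 917 for UM-UC-3. This was 1.42%, 0.713%, 0.812% and 1.09%, against 2.80%, 3.18%, 2.97% and 2.95% of shifted coding midpoints. Of the 2213 loci 22 were of this kind.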

How the data were processed

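PAI-1 ChIP-seq libraries of RT112 and UM-UC-3 (2 replicates each) were analysed from their peak lists. According to the methods and the submitters' processing notes, the authors mapped reads to hg19 with Bowtie 1.1.1, removed duplicates with Picard and called peaks with MACS2 2.1.0.20140616, and the notes also name FastQC and Trimmomatic. The threshold, the use of the input and any pooling of replicates are not given in the sources used here. A supplementary legend of the study mentions a false discovery rate limit for bound probe sets, without saying whether it was applied to these lists. Each deposited score was taken to be a −log10 value, of either the p-value or the q-value of a peak, since the lists do not say which. Lines with identical intervals were counted once with the highest score, which removed 78 to 195 lines per library. The lists hold no read counts, so no interval for counting error was computed.

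Coding intervals of protein-coding genes came from GENCODE 44 on GRCh37. Shifted midpoints that left a chromosome were dropped. Peaks overlapped when they shared at least 1 bp. GC and purine content and 3 words of 32 bp were read in 100 bp windows, the words of shifted midpoints at 4 of the 20 shifts. Genes named were the 10 with the most loci, 8 loci per cell line by mean rank of score in both replicates, 10 loci found in all 4 libraries (the other 2 are also given), up to 4 examples per gene list, and the primer genes of the study with a locus. An item that these rules named, with the counts that need it, is not reported here. Members and lists were chosen with earlier results of these data known. The share of coding peaks was compared between the lines with an exact permutation test. Alternatives covered the definition of a coding peak, the transcripts, the score, the shifts, the overlap and each replicate. Procedures were tested on simulated data. Python 3.11.15 was used with numpy 2.4.6, pandas 2.3.3, scipy 1.17.1, numba 0.67.0 and matplotlib 3.10.9.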

Additional observations from a re-analysis of the deposited data

How the results depend on the processing

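Values are means over the 4 libraries. The ratio of coding peaks to local shifts was 0.716 as reported and stayed between 0.696 and 0.741 under every definition, score limit, shift distance and gap filter tried, and between 0.705 and 0.728 with 1 library left out. Asking for 50% of the bases of a peak to be coding instead of its midpoint moved the share of coding peaks from 0.851% to 0.575%, the median score difference from 0.307 to 0.141, the share in coding intervals of 1000 bp or more from 20.2% to 30.01%, and the number of genes with 2 or more coding peaks from 39.75 to 23.75. A score of at least 5 moved the share to 0.889%, the ratio to shifts to 0.741, the score difference to 0.0291, the share in long intervals to 22.4% and the number of genes to 10.25. Transcripts of the basic set alone moved the share in long intervals to 20.6%, and reciprocal overlap of 50% moved the share found in the other cell line from 6.12% to 3.85%. The cause of these changes was not tested.

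With 1 library left out, the coding share ranged from 0.837% to 0.864%, the difference of UM-UC-3 minus RT112 from -0.135 to -0.0822 percentage points, the score difference from 0.296 to 0.318, the share found in the other replicate from 57.5% to 67.7%, the share found in the other cell line from 5.80% to 6.44%, the share in long intervals from 20.1% to 20.4% and the number of genes from 33.25 to 46.25. The difference between the lines kept its sign under all alternatives run. With replicate numbers as a replicate block it was -0.109 percentage points (exact paired permutation test with both sides counted, p = 0.5, below which 2 pairs cannot go). The numbers are not known to pair libraries: replicate 1 deviated from the mean of its line by -0.0265 points in RT112 and by -0.00749 in UM-UC-3.

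With 2 libraries per line and an unknown depth, a difference between the lines can be described against the spread of replicates but cannot pass a threshold of 0.05.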

Other observations

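Chromosomes differed in their coding peaks. On chromosome 10, UM-UC-3 had 53 and 58 coding peaks at 0.939 and 0.976 times the shifted number, and RT112 had 31 and 20 at 0.598 and 0.640 times. On chromosome 16, the ratios were 0.403 and 0.313 in UM-UC-3 and 0.602 and 0.693 in RT112, and on chromosome 14 they were 0.416 and 0.565 against 0.790 and 0.793. On chromosome 19, which is rich in genes and in GC, the ratio was 0.484 and 0.540 in UM-UC-3 and 0.720 and 0.631 in RT112. On chromosome 11, where many olfactory receptor genes lie, RT112 stood at 0.887 and 0.918 and UM-UC-3 at 0.748 and 0.649. The chromosomes were picked after their values were seen, and no difference between them was tested. The number of copies of each chromosome in the 2 lines was not measured.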
